A study of Mus musculus with 8 samples.

Results

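The axon guidance ligand and receptor genes are the semaphorins, ephrins, Slits and netrins and the plexins, neuropilins, Eph receptors, Robos, Unc5 proteins and Dcc that receive their signals. They were taken by symbol from the array annotation, which gave 57 genes with 96 probe sets among 12393 genes and 22626 probe sets, and 25 of the 57 genes had several probe sets. Messenger RNA of mouse embryonic stem cells was measured on 8 Affymetrix arrays, 2 each of wild type, Ezh2-/-, Eed-/- and Jarid2-/- cells, and the series compared each mutant with wild type. All 4 groups carry the strain label CJ7, an embryonic stem cell line used for gene targeting, and all were grown without further treatment, in 15% serum with leukemia inhibitory factor, a cytokine that holds stem cells undifferentiated, at 1000 U/ml. The labels do not say how the mutant lines were derived, whether a line is 1 clone, which part of each gene was removed, or whether replicate arrays stand for independent cultures. The p-values therefore measure only the spread between these arrays, which may be technical.

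Guidance cues steer growing axons. A semaphorin, ephrin, Slit or netrin on or near the path of an axon binds a receptor on its growth cone, and signals to the cytoskeleton then turn the growth cone toward or away from the source. The same ligands and receptors act outside the nervous system, in the sorting of embryonic cells into tissues and in the branching of blood vessels. Ezh2, Eed and Jarid2 encode parts of Polycomb repressive complex 2 (PRC2), which methylates histone H3 and keeps many developmental genes silent in stem cells. EZH2 carries the methyltransferase activity, EED binds the methylated histone and is needed for that activity, and JARID2 is a partner that recruits the complex to its sites.

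Replicate arrays had Pearson's r of 0.9938 to 0.9975 across probe sets, which are not independent replicates, and the median signal of an array lay between 323 and 351. Probe sets for a bacterial tryptophan gene, which serve as negative controls, reached 147.91. A group whose mean signal was not above this was taken as not above background. Ezh2 signal in Ezh2-/- cells was 14.5% of that in wild type, and the brighter Eed probe set in Eed-/- cells was at 35.2%. The 3 Jarid2 probe sets read 114% to 119% of wild type on the arrays labelled Jarid2-/-. The deleted part is not given, so these probe sets do not check that label. On the same arrays Ezh2 signal was 63% of wild type, with a log2 difference of -0.66 and an adjusted limma p of 0.0015. The brighter Eed probe set was at 105% there. The part of this lower Ezh2 signal in the results below was not tested. All 8 embryonic stem cell markers measured were above background in every group, with summed signals between 99200 and 121000 over the 8 arrays. Within this list Zfp42, a marker of undifferentiated cells, read 18400 in wild type, 3850 in Ezh2-/-, 18000 in Eed-/- and 3500 on the arrays labelled Jarid2-/- as group means. Its log2 difference from wild type was -2.25 in Ezh2-/- and -2.39 in Jarid2-/-. The other markers of the list did not follow it, with log2 differences from -0.19 (Nanog) to 0.48 (Utf1) in Ezh2-/-. In Jarid2-/- they ran from 0 (Pou5f1) to 0.49 (Utf1). Zfp42 was low in the groups where Efnb1, Unc5b, Nrp2 and Epha4, described below, were low, and its part in those results was not tested.

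Most of the guidance genes gave a signal in these embryonic stem cells. In the probe set with the highest signal of each gene, 42 of 57 genes had a mean above the negative controls in wild type, 40 in Ezh2-/-, 40 in Eed-/- and 41 on the arrays labelled Jarid2-/-. There were 38 genes above in all 4 groups and 13 in none. The 13 were Unc5c, Efna5, Nrp1, Robo3, Sema3c, Sema5a and Sema6d together with 6 of the 11 Eph receptor genes, Epha3, Epha5, Epha6, Epha7, Epha8 and Ephb6. All 7 plexin genes and all 3 Slit genes were above in at least 1 group. Signals of different probe sets depend on the probes as well as on the RNA, so the levels below are compared between groups and not between genes. In a bulk RNA sample, fewer cells that express a gene and less RNA per cell cannot be told apart.

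Where a guidance gene probe set differed from wild type it was lower in most cases, in each of the 3 mutants. Over the 96 probe sets, 27 were lower and 3 higher in Ezh2-/-, 18 were lower and 0 higher in Eed-/-, and 27 were lower and 2 higher on the arrays labelled Jarid2-/-, by limma at an adjusted p under 0.05. In Ezh2-/- the 30 called probe sets made 31.2% of the members, where 26.6% of all probe sets were called, 17.2% lower and 9.41% higher. In Eed-/- the 18 called made 18.8%, which is near the 18.6% of all probe sets, of which 10.9% were lower and 7.7% higher. At the brightest probe set of each gene, 17 of 57 were called in Ezh2-/-, 6 in Eed-/- and 15 in Jarid2-/-, or 29.8%, 10.5% and 26.3%, and of the 39 other probe sets 33.3%, 30.8% and 35.9% were called. On the arrays labelled Jarid2-/- the 29 called made 30.2%, where 19.8% of all probe sets were called, 13.7% lower and 6.08% higher. The median log2 difference from wild type of the member probe sets was -0.18, -0.17 and -0.16 in the same order, beside -0.07, -0.06 and -0.07 over all probe sets. It was -0.08, -0.11 and -0.04 with quantile normalization, beside 0.02, -0.02 and 0.02 over all, and -0.10, -0.17 and -0.09 with equal array medians, beside 0.01, -0.06 and -0.01.

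Of the called member probe sets, 11 of 30, 9 of 18 and 11 of 29 had neither compared group above the negative controls, so many of the calls concern dim probe sets. Over all probe sets these were 824 of 6012, 780 of 4213 and 750 of 4485 calls. Dim probe sets were more common among members. In the Ezh2-/- comparison 60 of 96 members were above the controls, beside 16738 of 22626 probe sets. Of those above, 19 of 60 members were called, beside 5188 of 16738. The 0 higher calls in Eed-/- came from limma with the values as deposited, and no other tool was run. With quantile normalization 2 members were higher and 11 lower in Eed-/-, and with equal array medians 1 was higher and 18 lower. The split of calls in Ezh2-/- was 6 higher and 17 lower with quantile normalization and 5 and 21 with equal medians, and on the arrays labelled Jarid2-/- it was 2 and 20, then 2 and 23. Over all probe sets the share of calls that were higher moved with the scaling. It was 35.4%, 41.4% and 30.7% as deposited for Ezh2-/-, Eed-/- and Jarid2-/-, then 49.5%, 48.6% and 48.4% with quantile normalization, and 51.5%, 40.9% and 48% with equal medians. Of 22626 probe sets, quantile normalization called 2805 higher and 2859 lower, 1833 and 1937, and 1971 and 2104. Equal medians called 2985 and 2806, 1711 and 2477, and 2071 and 2248. With either scaling the called share of members was near that of all probe sets in Ezh2-/- and above it in Jarid2-/-. In Eed-/- it was below that of all with quantile normalization and near it with equal medians. All 3 comparisons use the same 2 wild type arrays. The counts without single arrays that follow are of members only, and calls over all probe sets are not given for them. Without Eed-/- array 2, 3 member probe sets were called in Eed-/- in place of 18, and without Eed-/- array 1 there were 6. Without 1 of the Ezh2-/- arrays, 16 or 15 were called in Ezh2-/- in place of 30, and without wild type array 1 the count on the arrays labelled Jarid2-/- was 19 in place of 29.

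**Figure D1:**
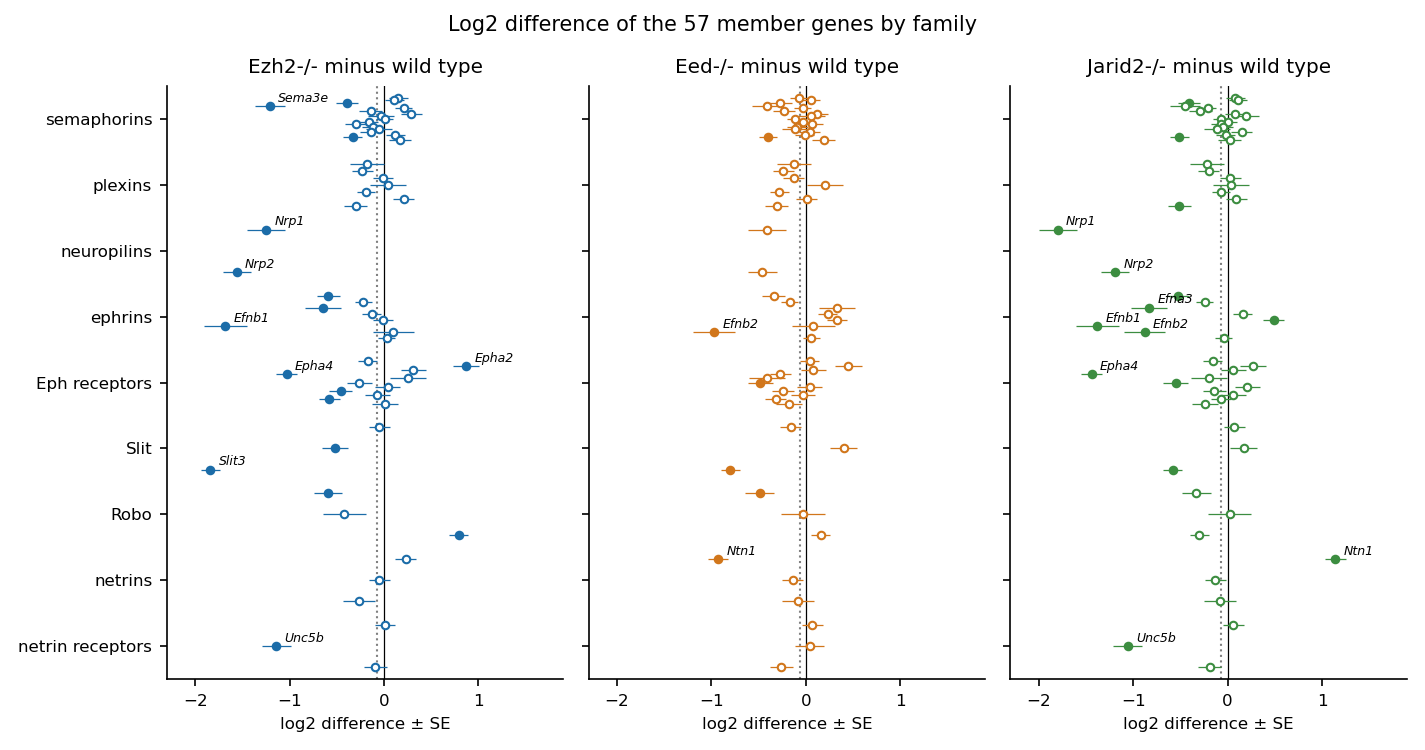
Log2 difference from wild type (x axis, with its limma SE) of the 57 guidance genes, 1 point per gene at the probe set with the highest mean signal, grouped by family (y axis) for Ezh2-/-, Eed-/- and Jarid2-/-. Filled points passed an adjusted p of 0.05, open points did not, the dotted line is the median of all probe sets, and names mark genes with a called difference of large size; Slit3 at -1.84 in Ezh2-/- is the leftmost point of that panel and Ntn1 lies at -0.93 in Eed-/- and 1.14 in Jarid2-/-.

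Of 55 ligand probe sets, 13 were lower and 1 higher in Ezh2-/-, 11 and 0 in Eed-/-, and 16 and 2 on the arrays labelled Jarid2-/-. Of 41 receptor probe sets, 14 were lower and 2 higher, then 7 and 0, then 11 and 0. The called shares were 25.5%, 20% and 32.7% of the ligand and 39%, 17.1% and 26.8% of the receptor probe sets, beside 26.6%, 18.6% and 19.8% of all. In Eed-/- both were near the share of all probe sets, and so were the ligands in Ezh2-/-. The genes described below were chosen by size or p-value within each comparison and family.

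The promoter windows of 5 genes whose signal differed in Ezh2-/- cells are shown here, because PRC2 in mammalian stem cells is known to bind many promoters rich in the dinucleotide CG. Each runs from 250 bases before to 50 bases after the annotated start, written 5′ to 3′ on the strand of the gene, from RefSeq on GRCm38.p6, with every CG in capitals. The first 4 genes were lower in Ezh2-/- than in wild type and the last was higher. They were not chosen in order of size.
Slit3, chr11:35121206-35121505, plus strand: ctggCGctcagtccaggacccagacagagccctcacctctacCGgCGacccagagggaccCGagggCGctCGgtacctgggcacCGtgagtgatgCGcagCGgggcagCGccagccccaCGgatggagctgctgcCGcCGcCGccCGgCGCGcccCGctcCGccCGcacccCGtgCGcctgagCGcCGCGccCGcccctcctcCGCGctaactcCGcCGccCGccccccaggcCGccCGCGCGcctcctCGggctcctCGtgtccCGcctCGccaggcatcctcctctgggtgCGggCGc
Efnb1, chrX:99135811-99136110, plus strand: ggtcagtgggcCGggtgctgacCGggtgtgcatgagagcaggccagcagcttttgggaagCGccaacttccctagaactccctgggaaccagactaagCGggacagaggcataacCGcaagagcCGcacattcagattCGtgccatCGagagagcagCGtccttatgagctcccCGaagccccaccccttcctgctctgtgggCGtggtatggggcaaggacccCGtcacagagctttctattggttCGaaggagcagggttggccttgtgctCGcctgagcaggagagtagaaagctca
Unc5b, chr10:60831532-60831831, minus strand: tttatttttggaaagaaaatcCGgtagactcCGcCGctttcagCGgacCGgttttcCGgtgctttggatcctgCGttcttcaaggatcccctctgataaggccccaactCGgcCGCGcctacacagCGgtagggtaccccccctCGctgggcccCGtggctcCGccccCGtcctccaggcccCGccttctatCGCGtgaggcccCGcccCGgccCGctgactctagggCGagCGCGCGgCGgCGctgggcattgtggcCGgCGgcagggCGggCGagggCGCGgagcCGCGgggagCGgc
Nrp2, chr1:62703067-62703366, plus strand: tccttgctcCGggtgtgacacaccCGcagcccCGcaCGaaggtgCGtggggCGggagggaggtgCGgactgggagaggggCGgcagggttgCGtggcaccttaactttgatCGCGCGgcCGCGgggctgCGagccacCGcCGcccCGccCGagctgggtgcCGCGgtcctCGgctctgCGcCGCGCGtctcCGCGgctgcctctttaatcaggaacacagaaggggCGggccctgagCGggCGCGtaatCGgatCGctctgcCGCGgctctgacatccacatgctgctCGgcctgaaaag
Robo4, chr9:37401722-37402021, plus strand: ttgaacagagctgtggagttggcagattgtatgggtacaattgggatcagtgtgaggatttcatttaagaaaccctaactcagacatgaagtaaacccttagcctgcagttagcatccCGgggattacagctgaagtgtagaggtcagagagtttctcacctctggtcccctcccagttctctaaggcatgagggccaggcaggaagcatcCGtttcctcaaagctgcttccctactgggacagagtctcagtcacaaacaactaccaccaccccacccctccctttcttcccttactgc

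The windows of Slit3, Unc5b and Nrp2 held 41, 36 and 37 CG dinucleotides, and that of Efnb1 held 14. The window of Robo4 held 2. As many or more CG dinucleotides as in the Slit3 window were found in 5.32% of the windows of array genes, and the matching shares were 9.96% for Unc5b, 8.81% for Nrp2, 59.8% for Efnb1 and 95.1% for Robo4. The ratio of observed to expected CG was 0.93 in Slit3, 0.99 in Unc5b, 0.99 in Nrp2, 0.53 in Efnb1 and 0.11 in Robo4. In Ezh2-/- Sema3e fell more than Unc5b (log2 -1.21 against -1.14) and Epha2 rose more than Robo4 (0.87 against 0.79). Neither Sema3e nor Epha2 is shown above. Their windows held 11 and 10 CG dinucleotides, with ratios of 0.58 and 0.46. Windows were given for 49 of the 57 guidance genes, 62 in all, and 58.1% of these had a ratio of at least 0.6, beside 58.8% of 12560 windows of genes on the array. Among genes lower in Ezh2-/- the share was 66.7%, or 12 of 18 windows, and among those not past the threshold it was 57.1%, or 24 of 42. No test was made of these shares, and no binding or methylation was measured in the arrays used here.

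In the Slit and Robo system, Slit3 was lower in all 3 mutants. SLIT proteins are secreted and repel axons through ROBO receptors. Slit3 signal was 313 and 337 in wild type, 84.2 and 75 in Ezh2-/-, 183 and 175 in Eed-/- and 201 and 225 on the arrays labelled Jarid2-/-. No mutant array reached a wild type array, and both Ezh2-/- arrays were below background. The log2 difference was -1.84 ± 0.1 (limma SE, 2 arrays a group) in Ezh2-/- with an adjusted p of 7.4e-06, -0.80 ± 0.1 in Eed-/- with 0.0015, and -0.58 ± 0.1 in Jarid2-/- with 0.0056. Since Ezh2-/- was not above background, wild type was at least 2.2-fold higher there, taken against the highest negative control. Slit3 in Ezh2-/- was also lower than in Eed-/-, by a log2 difference of -1.03 with an adjusted p of 0.00028.

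At its brightest probe set Slit2 was called lower in Ezh2-/- only. Its signal was 168 and 207 in wild type, 125 and 126 in Ezh2-/-, 263 and 242 in Eed-/- and 183 and 244 on the arrays labelled Jarid2-/-. Both Ezh2-/- arrays were below background and below both wild type arrays, and both Eed-/- arrays were above both wild type arrays. The log2 difference from wild type was -0.52 ± 0.14 in Ezh2-/- with an adjusted limma p of 0.027, at least 1.27-fold against the highest negative control, and 0.40 ± 0.14 in Eed-/- with 0.082. The other Slit2 probe set, below background in every group, was called in no mutant, with -0.07 in Ezh2-/-. With quantile normalization the Ezh2-/- call was lost, with -0.41 and 0.059. With the mean over the Slit2 probe sets it was also lost, with -0.30 and 0.057. The call in Ezh2-/- did not hold without wild type array 2, with a log2 difference of -0.38 and an adjusted p of 0.15, nor without either Ezh2-/- array, with an adjusted p of 0.12 each time. The Eed-/- difference passed without Jarid2-/- array 1 or 2, with adjusted p of 0.046 and 0.047. Slit1 read 381 and 452 in wild type and 361 to 449 over the 6 mutant arrays, and passed no threshold.

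Among the receptors, Robo4, which is known from endothelial cells, rose in Ezh2-/-. Its signal was 112 on both wild type arrays, 198 and 213 in Ezh2-/-, 131 and 123 in Eed-/- and 91.2 and 85 on the arrays labelled Jarid2-/-. Only the Ezh2-/- arrays were above background, and their log2 difference from wild type was 0.79 ± 0.1 with an adjusted limma p of 0.00063, at least 1.39-fold against the highest negative control. Robo4 and Robo3 are neighbours on chromosome 9, and Robo3, the receptor variant of commissural axons, was below background in each group and passed no threshold. The endothelial marker list summed to 1350 to 1440 in wild type, 1520 to 1680 in Ezh2-/-, 1500 to 1600 in Eed-/- and 1040 to 1080 in Jarid2-/-, with all 8 markers measured. Cdh5, Tie1 and Emcn were not above background in any group, Esam read 583 in Ezh2-/- against 179 in wild type, and Flt1 read 123 against 264. The part of this list in the Robo4 result was not tested.

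Robo1, a widely expressed Slit receptor, read 1097 and 1314 in wild type, 814 and 776 in Ezh2-/-, 868 and 830 in Eed-/- and 820 and 1100 on the arrays labelled Jarid2-/-. All Ezh2-/- and Eed-/- arrays were below both wild type arrays. The log2 differences were -0.59 ± 0.15 in Ezh2-/- with an adjusted limma p of 0.018 and -0.49 ± 0.15 in Eed-/- with 0.046. Neither was stable to leaving out arrays. The Ezh2-/- call was lost without wild type array 2, with -0.46 and an adjusted p of 0.091, and without Ezh2-/- array 1 or 2, with adjusted p of 0.081 and 0.12. The Eed-/- call was lost without wild type array 2, with -0.36 and 0.19, without either Eed-/- array, with 0.13 and 0.18, and without either Ezh2-/- array, with 0.085 each time. On the arrays labelled Jarid2-/- the log2 difference was -0.33 with 0.14, and it passed without Jarid2-/- array 2, with -0.54 and 0.041.

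**Figure D2:**
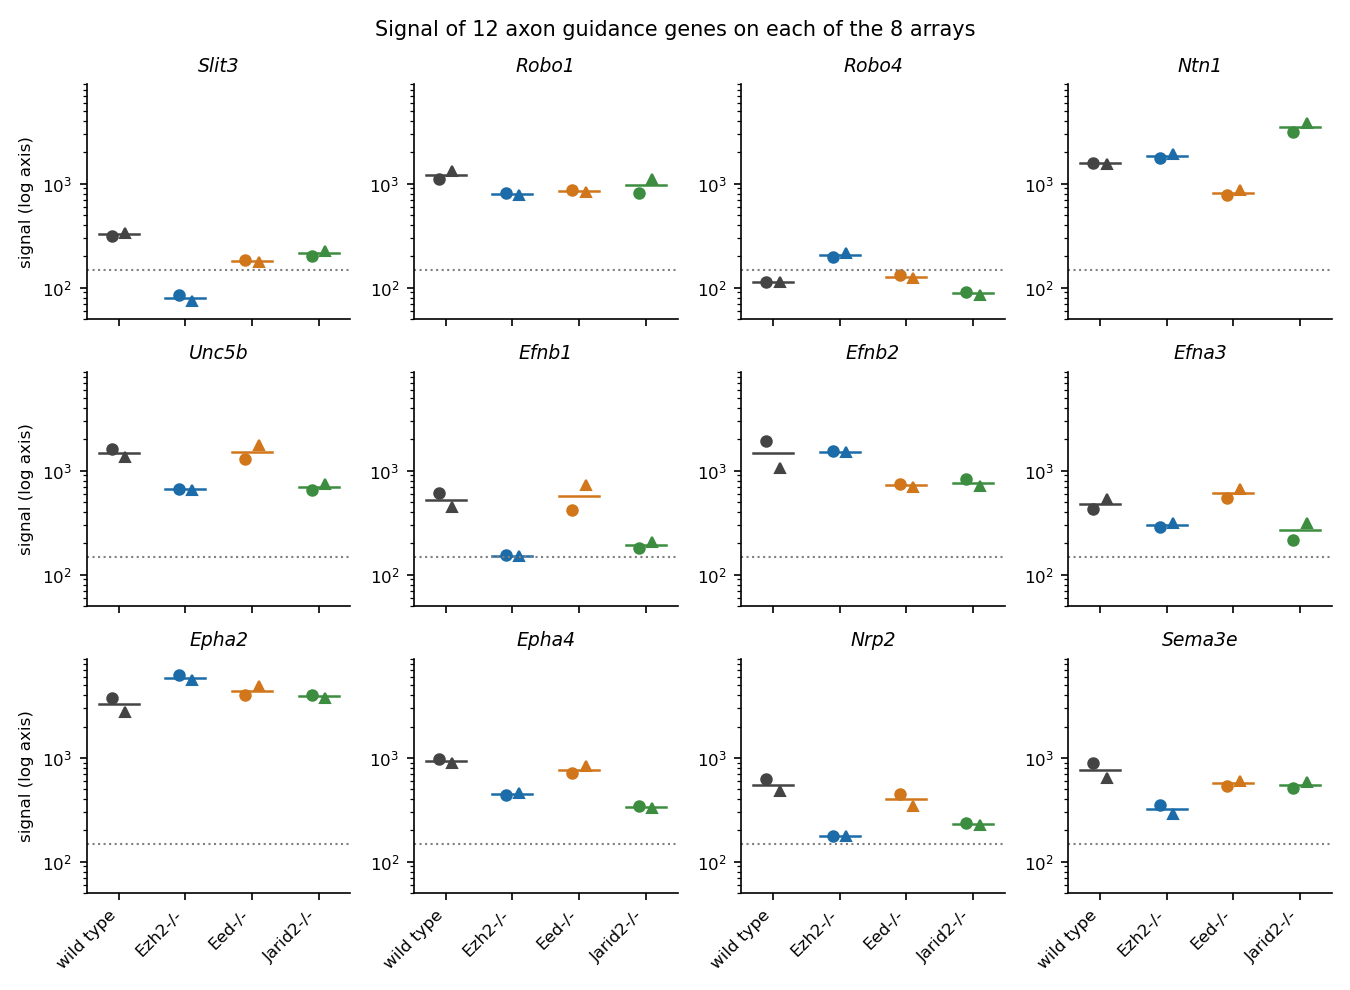
Deposited signal (log axis) of 12 guidance genes on each array, with circles for replicate 1, triangles for replicate 2, a bar for the mean of the 2 arrays of a genotype and a dotted line at the highest negative control value. Slit3 is at 84.2 and 75 in Ezh2-/-, below the line, and Ntn1 spans 781 in Eed-/- to 3851 in Jarid2-/-.

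Netrin-1, a secreted cue that attracts axons through DCC and repels them through UNC5 receptors, moved in opposite directions in 2 of the mutants. Ntn1 signal was 1594 and 1550 in wild type, 1755 and 1938 in Ezh2-/-, 781 and 859 in Eed-/- and 3154 and 3851 on the arrays labelled Jarid2-/-. The 4 groups did not overlap, in the order Eed-/-, wild type, Ezh2-/-, Jarid2-/-, and wild type and Ezh2-/- did not differ beyond their spread by the test. The log2 difference from wild type was -0.93 ± 0.11 in Eed-/- with an adjusted limma p of 0.0012, 1.14 ± 0.11 in Jarid2-/- with 0.00034, and 0.23 ± 0.11 in Ezh2-/- with 0.18. Between mutants, Jarid2-/- was above Eed-/- by log2 2.07 with an adjusted p of 1.6e-05, and above Ezh2-/- by 0.91 with 0.001. Ezh2-/- was above Eed-/- by 1.16 with 0.00026. The other Ntn1 probe set was below background in every group. Ntn4, also a secreted netrin, read 103 to 167 over the 8 arrays and passed no threshold.

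Unc5b, a netrin receptor also known from blood vessels, fell to 44.3% and 45.2% of the wild type mean on the Ezh2-/- arrays and to 43.9% and 50.8% on those labelled Jarid2-/-. Its signal was 1613 and 1352 in wild type, 670 and 657 in Ezh2-/-, 1300 and 1763 in Eed-/- and 651 and 753 on the arrays labelled Jarid2-/-. All 4 Ezh2-/- and Jarid2-/- arrays were below all wild type and Eed-/- arrays, and the Eed-/- arrays lay on both sides of the wild type pair. The log2 differences from wild type were -1.14 ± 0.15 with an adjusted limma p of 0.001, 0.04 ± 0.15 with 0.89 in Eed-/-, and -1.06 ± 0.15 with 0.002 in Jarid2-/-. Ezh2-/- and Jarid2-/- were lower than Eed-/- by log2 differences of -1.17 and -1.10, with adjusted p of 0.0012 and 0.0019. Dcc, the netrin receptor for attraction, read 148 to 176 over the 8 arrays and passed no threshold, and Unc5c was below background throughout.

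Ephrins are bound to the cell surface, ephrin-A by a lipid anchor and ephrin-B by a transmembrane segment, and signal both into the cell that carries the Eph receptor and back. Of 14 ephrin probe sets, 5 were lower in Ezh2-/-, 3 in Eed-/- and 8 in Jarid2-/-, where 1 was higher. These made 35.7%, 21.4% and 64.3%, beside 26.6%, 18.6% and 19.8% of all probe sets. Efnb1 signal was 605 and 450 in wild type, 154 and 149 in Ezh2-/-, 416 and 733 in Eed-/- and 179 and 205 on the arrays labelled Jarid2-/-. The Ezh2-/- and Jarid2-/- arrays were all below the others, and the Eed-/- pair spanned more than the wild type pair. The log2 difference from wild type was -1.68 ± 0.23 in Ezh2-/- with an adjusted limma p of 0.0011, 0.08 ± 0.23 in Eed-/- with 0.84, and -1.38 ± 0.23 in Jarid2-/- with 0.0041. The other 2 Efnb1 probe sets had the same calls, with log2 differences of -1.65 and -1.05 in Ezh2-/- and -1.28 and -1.31 in Jarid2-/-. Both were below background in Ezh2-/-, where wild type was at least 2.62-fold and 1.32-fold higher against the highest negative control. The second was also below it in Jarid2-/-, with the same bound of 1.32-fold. Efnb1 was lower in Ezh2-/- than in Eed-/- by a log2 difference of -1.76 with an adjusted p of 0.0012, and lower in Jarid2-/- than in Eed-/- by -1.45 with 0.0036.

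Efnb2, which is known as a marker of arteries and binds EphB4, fell in Eed-/- and Jarid2-/-. Its signal was 1912 and 1070 in wild type, 1537 and 1522 in Ezh2-/-, 745 and 700 in Eed-/- and 827 and 712 on the arrays labelled Jarid2-/-. The Eed-/- and Jarid2-/- arrays were all below the lower wild type array, and the Ezh2-/- arrays lay inside the wild type range. The log2 differences were -0.97 ± 0.22 in Eed-/- with an adjusted limma p of 0.017, -0.88 ± 0.22 in Jarid2-/- with 0.022, and 0.10 ± 0.22 in Ezh2-/- with 0.79. The Eed-/- call was lost without Eed-/- array 1 or 2, with log2 differences of -1.02 and -0.93 and adjusted p of 0.066 and 0.092. The Jarid2-/- call was lost without Jarid2-/- array 2, with -0.78 and 0.11. Of 4 Efnb2 probe sets, 1 was not called in any mutant, with log2 differences between -0.07 and 0.09. Without wild type array 1, Efnb2 in Ezh2-/- passed the threshold as higher, with a log2 difference of 0.51 and an adjusted p of 0.019.

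Among the lipid-anchored ephrins, the neighbouring genes Efna1 and Efna3 on chromosome 3 were lower in Ezh2-/- and Jarid2-/-, and the next gene, Efna4, was not called in any mutant. Efna3 read 424 and 536 in wild type, 286 and 313 in Ezh2-/-, 545 and 669 in Eed-/- and 216 and 317 on the arrays labelled Jarid2-/-. The log2 differences were -0.65 ± 0.19 in Ezh2-/- with an adjusted limma p of 0.031 and -0.83 ± 0.19 in Jarid2-/- with 0.014. The Ezh2-/- call was lost without wild type array 2, with -0.48 and 0.16, and without Ezh2-/- array 1 or 2, with 0.16 and 0.10. The Jarid2-/- call was lost without wild type array 2, with -0.66 and 0.062, and without Jarid2-/- array 1, with -0.57 and 0.069. Efna1 read 232 and 238 in wild type, 167 and 135 in Ezh2-/-, 166 and 200 in Eed-/- and 160 and 155 on the arrays labelled Jarid2-/-. Its mutant arrays were all below both wild type arrays, and its log2 difference was -0.59 ± 0.12 in Ezh2-/- with 0.0082 and -0.53 ± 0.12 in Jarid2-/- with 0.017. The first was lost without Ezh2-/- array 2, with -0.46 and 0.079, and the second without wild type array 2 or either Jarid2-/- array, with adjusted p of 0.057, 0.053 and 0.075. The other Efna1 probe set, below background in every group, was called in no mutant, with -0.38 and an adjusted limma p of 0.05 in Ezh2-/-. Efna5 was called higher on the arrays labelled Jarid2-/-, at 117 and 116 against 74.6 and 81.7, all below background. That call was lost without wild type array 1 or either Jarid2-/- array, with adjusted p of 0.072, 0.056 and 0.06.

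Among the Eph receptors, which are receptor tyrosine kinases, Epha4 fell and Epha2 rose. Of 19 probe sets, 6 were lower and 1 higher in Ezh2-/-, 4 lower in Eed-/- and 4 lower in Jarid2-/-. These made 36.8%, 21.1% and 21.1%, and the last 2 shares are near the 18.6% and 19.8% of all probe sets. Epha4, which binds ephrins of both classes, read 969 and 901 in wild type, 436 and 463 in Ezh2-/-, 717 and 826 in Eed-/- and 342 and 326 on the arrays labelled Jarid2-/-. No mutant array reached a wild type array. The log2 differences were -1.03 ± 0.11 with an adjusted limma p of 0.00023 in Ezh2-/-, -0.27 ± 0.11 with 0.1 in Eed-/-, and -1.44 ± 0.11 with 7.9e-05 in Jarid2-/-. A second probe set gave -1.18, -0.29 and -1.28, with the same calls. Epha4 was lower in Ezh2-/- and Jarid2-/- than in Eed-/-, by log2 differences of -0.76 and -1.17 with adjusted p of 0.0016 and 0.00019.

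Epha2, known from epithelia and from embryonic stem cells, read 3735 and 2786 in wild type, 6204 and 5606 in Ezh2-/-, 4022 and 4861 in Eed-/- and 4015 and 3795 on the arrays labelled Jarid2-/-. Every mutant array was above both wild type arrays, and the Ezh2-/- pair was above all others. The log2 difference was 0.87 ± 0.14 in Ezh2-/- with an adjusted limma p of 0.0022, 0.45 ± 0.14 in Eed-/- with 0.05, which did not pass, and 0.27 ± 0.14 in Jarid2-/- with 0.2. Without wild type array 1 the Eed-/- value was 0.66 with an adjusted p of 0.0082 and the Jarid2-/- value was 0.48 with 0.028, both past the threshold. Ephb4, the receptor of EFNB2 on veins, read 271 and 303 in wild type, 176 and 197 in Ezh2-/-, 234 and 217 in Eed-/- and 263 and 281 on the arrays labelled Jarid2-/-. Its log2 difference was -0.58 ± 0.11 in Ezh2-/- with 0.0041, and the other mutants did not pass. Epha6 was called lower in Eed-/- and Jarid2-/-, with group means of 35.6 to 59.4, all below background. With quantile normalization these values were -0.31 and -0.37 and neither passed, with adjusted limma p of 0.11 and 0.066. Both Epha6 calls were lost without wild type array 1 or 2, with adjusted p of 0.099 and 0.099 in Eed-/- and 0.072 and 0.055 in Jarid2-/-. The first was also lost without either Eed-/- array (0.069 and 0.14) and the second without Jarid2-/- array 1 (0.078).

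Neuropilins are co-receptors that bind class 3 semaphorins and vascular endothelial growth factor. All 4 neuropilin probe sets were lower in Ezh2-/- and 3 of 4 in Jarid2-/-, and none passed in Eed-/-. These made 100%, 75% and 0%, beside 26.6%, 19.8% and 18.6% of all probe sets. Of the calls, 3 in Ezh2-/- and 2 in Jarid2-/- were of Nrp1 probe sets with no group above the negative controls. Nrp2 signal was 628 and 479 in wild type, 175 and 177 in Ezh2-/-, 450 and 347 in Eed-/- and 238 and 225 on the arrays labelled Jarid2-/-. The Ezh2-/- and Jarid2-/- arrays were below every wild type and Eed-/- array. The log2 differences were -1.56 ± 0.15 in Ezh2-/- with an adjusted limma p of 0.00018, -0.46 ± 0.15 in Eed-/- with 0.067, and -1.19 ± 0.15 in Jarid2-/- with 0.0011. Without wild type array 2 the Eed-/- value was -0.65 and passed with an adjusted p of 0.032. Against Eed-/-, Nrp2 was lower in Ezh2-/- by -1.10 with 0.0015 and in Jarid2-/- by -0.73 with 0.012. The last call was lost without Eed-/- array 1, with -0.55 and 0.076, and without Jarid2-/- array 2, with -0.70 and 0.061. Nrp1 read 131 and 126 in wild type, 38.1 and 51.8 in Ezh2-/-, 79.3 and 108 in Eed-/- and 18.8 and 33.8 on the arrays labelled Jarid2-/-. Its calls in Ezh2-/- and Jarid2-/- had adjusted p of 0.0022 and 0.00056, but no array was above the negative controls, so no fold is given.

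Sema3e, a secreted semaphorin that binds plexin D1 without a neuropilin, fell in Ezh2-/-. Of 33 semaphorin probe sets, 6 were lower and 1 higher in Ezh2-/-, 6 lower in Eed-/- and 7 lower in Jarid2-/-. These made 21.2%, 18.2% and 21.2%, which is below or near the 26.6%, 18.6% and 19.8% of all probe sets. Sema3e signal was 890 and 644 in wild type, 349 and 288 in Ezh2-/-, 533 and 602 in Eed-/- and 510 and 589 on the arrays labelled Jarid2-/-. Every mutant array was below both wild type arrays, and the Ezh2-/- pair was the lowest. The log2 difference was -1.21 ± 0.16 in Ezh2-/- with an adjusted limma p of 0.00099, -0.41 ± 0.16 in Eed-/- with 0.12 and -0.45 ± 0.16 in Jarid2-/- with 0.084. Without wild type array 2 the Eed-/- and Jarid2-/- values were -0.64 and -0.68 and passed, with adjusted p of 0.033 and 0.018. A second Sema3e probe set was called lower in all 3 mutants, with -0.79, -0.53 and -0.65, and another in none, with -0.39, -0.28 and -0.16.

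Sema6d, a transmembrane semaphorin, was the other member called lower in all 3 mutants at its brightest probe set, with adjusted p of 0.044, 0.029 and 0.0096. It read 139 and 125 in wild type and 87.9 to 104 in the mutants, all below background. Sema3c was called lower in Ezh2-/- and Jarid2-/- with adjusted p of 0.047 and 0.046, also below background. With quantile normalization the Sema6d calls in Ezh2-/- and Eed-/- were lost, with adjusted limma p of 0.19 and 0.098. Both Sema3c calls were lost as well, with 0.15 and 0.14, while the Sema6d call in Jarid2-/- held. The calls of Sema6d in Ezh2-/- and of Sema3c in Jarid2-/- were lost without any 1 of the 8 arrays, with adjusted p of 0.056 to 0.2 and 0.05 to 0.19. The Sema6d call in Jarid2-/- was lost without wild type array 1 (0.059), and in Eed-/- without any wild type, Ezh2-/- or Eed-/- array (0.053 to 0.14). The Sema3c call in Ezh2-/- was lost without any wild type or Ezh2-/- array or Eed-/- array 2 (0.05 to 0.26). Sema4b, a transmembrane semaphorin, read 1204 and 1353 in wild type and 1266 to 1616 in the mutants, and passed no threshold as deposited. It was called higher in Ezh2-/- with quantile normalization and with equal medians, with log2 differences of 0.37 and 0.38 and adjusted p of 0.048 and 0.036.

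Among semaphorin probe sets named after their values were seen, a second one of Sema3b, a secreted semaphorin, was lower in all 3 mutants. It read 218 and 217 in wild type, 135 and 147 in Ezh2-/-, 152 and 165 in Eed-/- and 128 and 119 on the arrays labelled Jarid2-/-, with adjusted limma p of 0.0032, 0.019 and 0.0013. No mutant array reached a wild type array, yet another Sema3b probe set passed no threshold, with log2 differences of 0.11, 0.05 and 0.11. The 1 semaphorin probe set called higher in Ezh2-/- was a second one of Sema4a, a transmembrane semaphorin, at 336 and 382 against 230 and 284 in wild type, with 0.027. The brightest Sema4a probe set was not called there, at a mean of 596 against 659 in wild type, a log2 difference of -0.14.

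The plexins are the signalling receptors of the semaphorins. Of 11 probe sets, 2 were lower in Ezh2-/-, 2 in Eed-/- and 3 in Jarid2-/-. These made 18.2%, 18.2% and 27.3%, beside 26.6%, 18.6% and 19.8% of all probe sets. Plexin D1, the receptor of SEMA3E, read 453 and 412 in wild type, 373 and 324 in Ezh2-/-, 355 and 337 in Eed-/- and 324 and 276 on the arrays labelled Jarid2-/-. All mutant arrays were below both wild type arrays. The log2 difference of Plxnd1 was -0.51 ± 0.12 in Jarid2-/- with an adjusted limma p of 0.016, and -0.30 and -0.31 in Ezh2-/- and Eed-/-, which did not pass. The Jarid2-/- call was lost without wild type array 1, with -0.44 and 0.071, and without Jarid2-/- array 2, with -0.40 and 0.095. The other plexin calls came from 2 dim probe sets of Plxnc1, which were lower in all 3 mutants and below background in each group. Its brightest probe set read 130 to 167 and passed no threshold. Plxnb2, a receptor of class 4 semaphorins, read 716 and 999 in wild type and 756 to 1066 in the mutants and passed no threshold.

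Between mutants, 20 member probe sets differed for Ezh2-/- against Eed-/-, or 20.8%, where 16.8% of all probe sets were called. There were 14, or 14.6%, for Jarid2-/- against Eed-/-, where 14.9% of all were called. For Jarid2-/- against Ezh2-/- there were 13, or 13.5%, where 15% were called. The last count was 4, 3 or 3 without Ezh2-/- array 1, Ezh2-/- array 2 or Jarid2-/- array 2, and the first was 12, 12 or 11 without Ezh2-/- array 1, Ezh2-/- array 2 or Eed-/- array 2.

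Several of the guidance genes lie on chromosomes whose bright genes as a group were below wild type. The median log2 difference over 339 genes with a mean signal above 500 on chromosome 8, which carries Efnb2 and Nrp1, was -0.31 in Ezh2-/-, -0.34 in Eed-/- and -0.30 in Jarid2-/-. On chromosome 1, with Epha4 and Nrp2, it was -0.22, -0.17 and -0.23 over 311 genes. On chromosome 11, with Slit3 and Ntn1, it was -0.14, -0.13 and -0.07 over 524 genes, and on the X chromosome, with Efnb1, it was -0.17, 0.02 and -0.08 over 186 genes. Relative to the chromosome median, Nrp2 was at -1.34 in Ezh2-/- and -0.96 in Jarid2-/-, Epha4 at -0.81 and -1.21, and Slit3 at -1.70 in Ezh2-/-. Efnb2 was at -0.63 in Eed-/- and -0.58 in Jarid2-/-, and Ntn1 at -0.80 in Eed-/- and 1.21 in Jarid2-/-. Chromosome copy number was not tested.

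**Figure D3:**
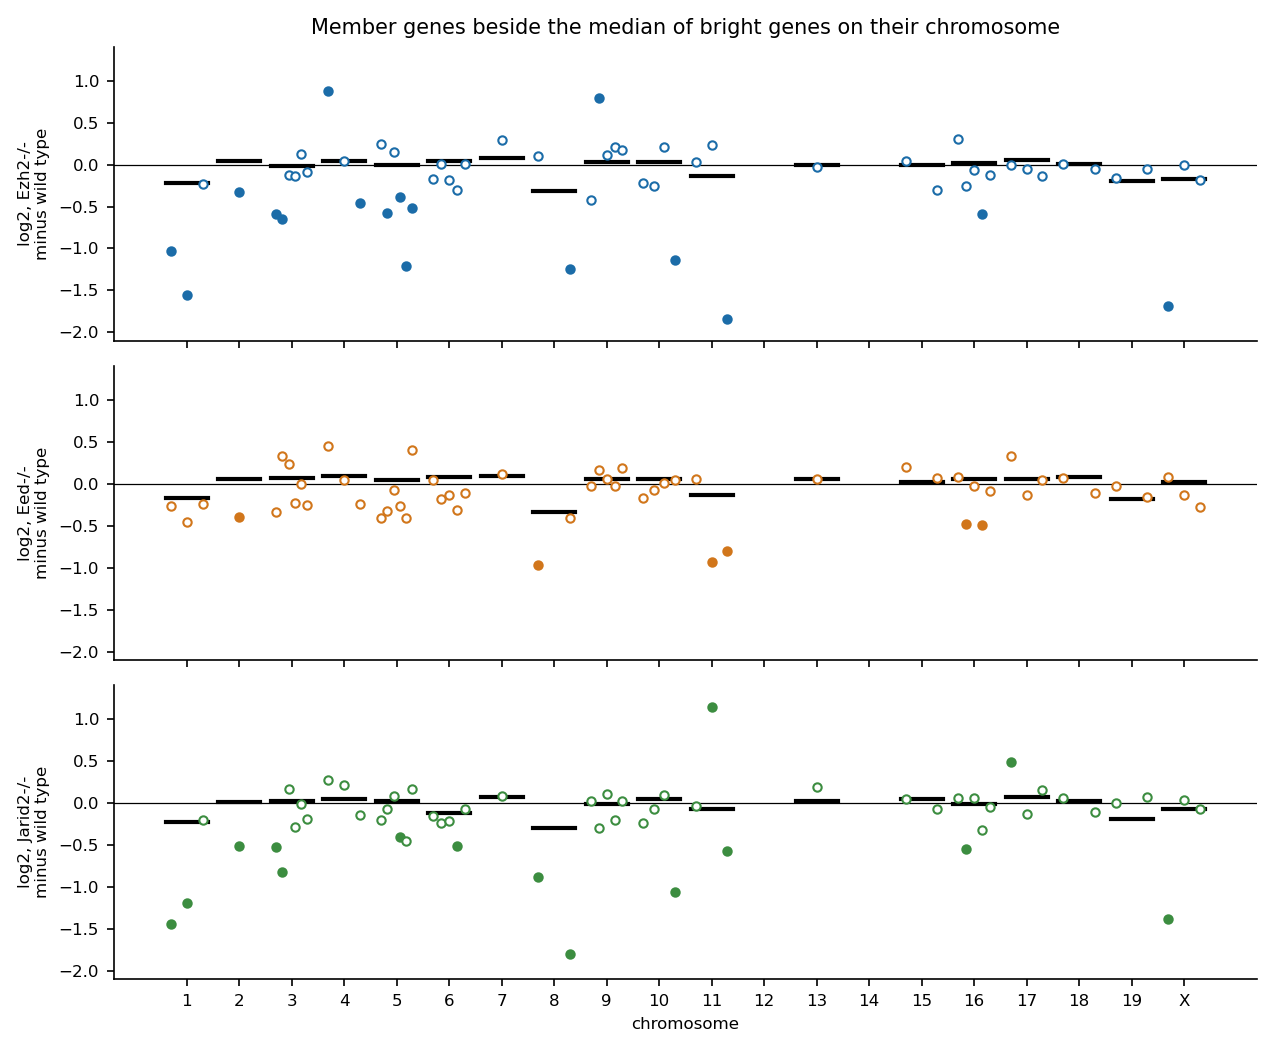
Log2 difference from wild type (y axis) of the guidance genes by chromosome (x axis), for Ezh2-/-, Eed-/- and Jarid2-/- from top to bottom; filled points passed an adjusted p of 0.05, open points did not, and each bar is the median of the bright genes of that chromosome. The bars of chromosome 8 lie at -0.31, -0.34 and -0.30, and the filled points of Nrp2 and Epha4 on chromosome 1 in Ezh2-/- and Jarid2-/- lie below a bar at -0.22 or -0.23.

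Markers of other cell types differed between the groups as well. The trophectoderm list, with all 8 markers measured, summed to 18200 to 24500 in wild type, 3730 to 4670 in Ezh2-/-, 11700 to 23100 in Eed-/- and 5980 to 7550 on the arrays labelled Jarid2-/-. The keratins Krt8 and Krt18, which many epithelia make, gave much of this sum. Krt8 read 10000, 1120, 6550 and 1170 as group means in the same order, while Cdx2, a defining trophectoderm factor, read 216, 190, 207 and 193. Tfap2c read 3840, 1330, 4060 and 3950. In Eed-/- against wild type, Eomes read 450 against 271, Krt7 629 against 161 and Gata3 314 against 64.1. Eed-/- array 2 was 1.97 times array 1 in this sum, 1.76 times in Efnb1 and 1.36 times in Unc5b, whereas Nrp2 was 1.3 times higher on Eed-/- array 1. The fibroblast and feeder list, with all 12 markers measured, summed to 2730 to 3640 in wild type, 1550 to 1570 in Ezh2-/-, 1850 to 1970 in Eed-/- and 1370 to 1440 in Jarid2-/-. Of its 12 markers 7 were not above background in wild type, among them Col3a1, Dcn, Lum and Postn. Col1a2 read 1160, 154, 216 and 132 and Col1a1 read 490, 24.5, 66.4 and 23.6 as group means in the same order, so much of the difference in the sum came from these 2 collagen genes. The neural list, with 14 of 15 markers measured, summed to 18800 to 23200, 16700 to 17200, 20600 to 21200 and 10200 to 12100. Stmn2 gave much of this sum, at 12000, 11200, 12700 and 5560 as group means. In Jarid2-/- Gap43, Neurod1, Nefm, Ncam1 and Nefl were also lower, with log2 differences from -1.49 to -0.73. The rest of the list, Sox1, Pax6 and Tubb3 among them, lay between -0.23 and 0.09 there. In the oligodendrocyte list, 5 of 6 markers were measured, and only Olig1 and Olig2 were higher in the mutants. These 2 read 79 and 30 in wild type, and 1680 and 971 in Ezh2-/-, 3900 and 1360 in Eed-/- and 4560 and 1830 in Jarid2-/-. The others were below wild type in each mutant. In the order wild type, Ezh2-/-, Eed-/- and Jarid2-/-, Sox10 read 323, 286, 268 and 302, Pdgfra 153, 138, 110 and 138, and Mbp 345, 338, 274 and 314. The part of these cell types in the guidance gene results was not tested.

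**Figure D4:**
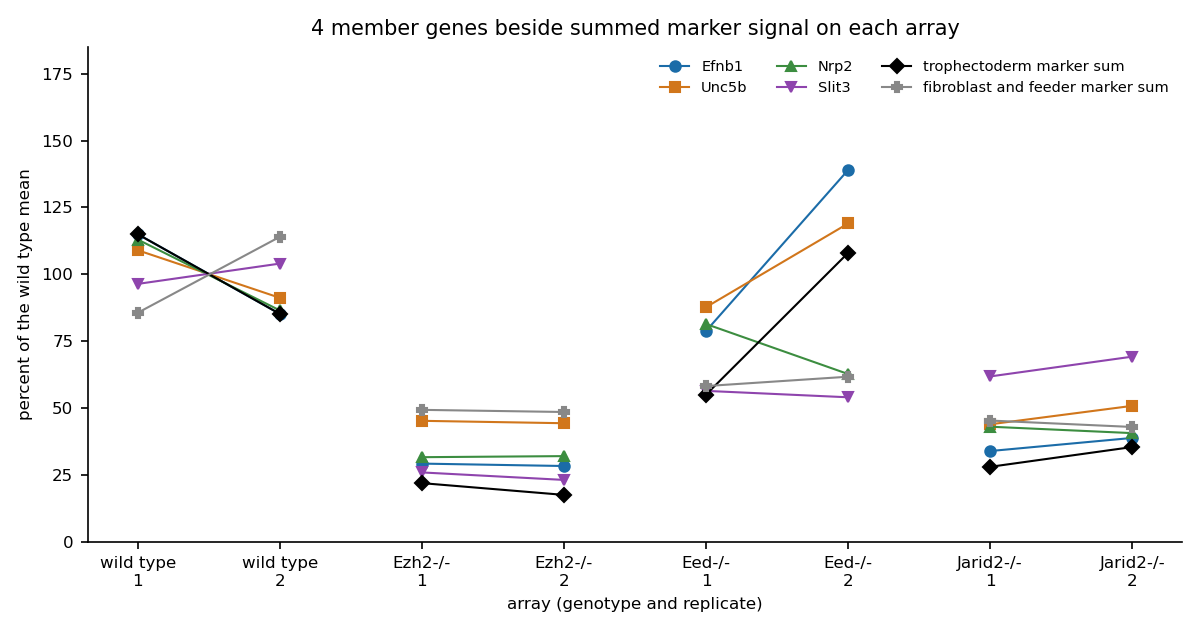
Signal of Efnb1, Unc5b, Nrp2 and Slit3 and summed signal of the trophectoderm and the fibroblast and feeder marker lists on each array (x axis), as a percent of the wild type mean (y axis). Efnb1 is at 78.8% and 139% on the 2 Eed-/- arrays, where the trophectoderm sum is at 55% and 108%, and on the Ezh2-/- arrays Efnb1 is at 29.2% and 28.3% beside 21.9% and 17.5%; on the wild type arrays the Efnb1 and trophectoderm points coincide.

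The genes that act downstream of or beside the guidance receptors were described from a list of 72 co-receptors, adaptors and cytoskeletal regulators, of which 57 were measured with 106 probe sets. In Ezh2-/- 9 were higher and 32 lower, in Eed-/- 11 higher and 4 lower, and in Jarid2-/- 8 higher and 18 lower. The called shares were 38.7%, 14.2% and 24.5%, beside 26.6%, 18.6% and 19.8% of all probe sets. Their median log2 differences were -0.14, 0.03 and -0.03, beside -0.07, -0.06 and -0.07 over all. Gap43, a growth cone protein of neurons, read 1268 and 1038 in wild type, 586 and 584 in Ezh2-/-, 921 and 846 in Eed-/- and 433 and 366 on the arrays labelled Jarid2-/-. Its log2 difference was -0.95 ± 0.13 in Ezh2-/- with an adjusted limma p of 0.00092 and -1.49 ± 0.13 in Jarid2-/- with 0.00016. Crmp1, which relays semaphorin signals, fell in Ezh2-/- by 1.07 on the log2 scale with an adjusted p of 0.00098, from 1638 and 1330 to 721 and 665. Ablim1, an actin-binding protein, fell there from 217 and 270 to 68.6 and 64.1, with an adjusted p of 0.00084. Limk1, the kinase of cofilin, rose from 261 and 259 in wild type to 486 and 504 in Ezh2-/- and to 375 and 402 in Eed-/-, with adjusted p of 0.00024 and 0.0049. Dpysl3, a collapsin response mediator relative of Crmp1, rose from 723 and 613 to 1650 and 1844 in Eed-/- and to 1081 and 1234 in Jarid2-/-, with adjusted p of 0.00021 and 0.0024. Srgap3, a Slit-Robo GTPase activating protein, rose from 117 and 132 to 306 and 271 in Eed-/- and to 216 and 306 in Jarid2-/-, with adjusted p of 0.0023 and 0.0033. Nrcam, a cell adhesion partner of neuropilins, fell in Jarid2-/- from 186 and 267 to 85.9 and 94.4, with an adjusted p of 0.0018. Evl, which promotes actin filament growth, was higher in Eed-/- than in wild type, rising from 591 and 669 to 1099 and 1086, with an adjusted p of 0.0045. Ablim1 in Ezh2-/-, Nrcam in Jarid2-/- and Srgap3 in wild type, with means of 66.3, 90.1 and 125, were not above background. No fold is given for these.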

How the data were processed

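RNA of 8 samples was measured on Affymetrix 3′ arrays. The authors deposited a table of linear intensity per probe set, and its normalization is not given by the labels or the file. A second deposited table, with 12 columns that match no sample label, was not used. The 64 control probe sets were left out. The value analysed was log2 of intensity plus 16, after raising values below 1 to 1, without further normalization or filter. A log2 difference on this scale understates changes of dim probe sets. The 22626 other probe sets were fitted by limma 3.58.1 under R 4.3.3, using all 8 arrays, 1 mean for each genotype and eBayes with an intensity trend (4 residual and 5.02 prior degrees of freedom). Two-sided p-values were given the Benjamini-Hochberg adjustment across the probe sets tested in each of 6 comparisons, at a threshold of 0.05. Having 2 arrays a group limits the precision.

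Members were probe sets with 1 symbol matching the family names. Of all probe sets 20380 had 1 symbol, 691 several and 1555 none, and all 57 members were placed on GRCm38.p6. The members, lists and tests were chosen with earlier results of these data known. A gene was represented by its probe set of highest mean signal. Named genes were, per mutant, up to 6 rises and 6 falls of largest size among called genes with groups apart and above the negative controls, up to 4 per family by p and the brightest, up to 5 per direction between mutants, those called one way in all 3 mutants, and up to 4 pathway genes per mutant. Other members were named after their values were seen. The procedure was tested on simulated data. No block for replicate number was fitted in the main analysis: deviations of same-numbered arrays correlated by 0.411 between wild type and Jarid2-/-, 0.244 between Eed-/- and Jarid2-/- and 0.008 to 0.05 otherwise, and the labels name no shared culture. Alternatives were other pseudocounts (1 and 64), 2 normalizations, a filter on dim probe sets, no trend, the block, fits of 2 genotypes, the mean over probe sets of a gene and leaving out each array.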

Additional observations from a re-analysis of the deposited data

Results flagged for a closer look

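The following genes are listed because the effects of 2 mutants differed by the direct limma test between them, with adjusted p-values under 0.05 over all probe sets and 2 arrays a group. Values are log2 differences.

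Between Ezh2-/- and Eed-/- cells, Ntn1 (1.16), Efnb2 (1.07) and Robo4 (0.63) were higher in Ezh2-/-. Lower in Ezh2-/- than in Eed-/- were Epha4 (-0.76), Sema3e (-0.81), Slit2 (-0.92), Efna3 (-0.98), Slit3 (-1.03), Nrp2 (-1.1), Unc5b (-1.17) and Efnb1 (-1.76). Slit2 and Slit3 in Ezh2-/- and Robo4 in Eed-/- were not above background, so the brighter group was at least 1.71-fold, 1.21-fold and 1.39-fold higher against the highest negative control.

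Between the arrays labelled Jarid2-/- and Eed-/- cells, Ntn1 was higher in Jarid2-/- (2.07, adjusted p of 1.6e-05). Nrp2 (-0.73), Unc5b (-1.1), Efna3 (-1.16), Epha4 (-1.17) and Efnb1 (-1.45) were lower in Jarid2-/-.

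Between the arrays labelled Jarid2-/- and Ezh2-/- cells, Slit3 (1.26), Ntn1 (0.91), Sema3e (0.76), Slit2 (0.69) and Ephb4 (0.51) were higher in Jarid2-/-. Epha4 (-0.41), Sema3f (-0.42), Epha2 (-0.59), Efnb2 (-0.98) and Robo4 (-1.09) were lower there. With the dimmer group not above background, the brighter was at least 1.44-fold higher for Slit3, 1.45-fold for Slit2 and 1.39-fold for Robo4. Among these calls between mutants, those of Epha4, Epha2, Efnb2, Slit2, Sema3e and Ephb4 between Jarid2-/- and Ezh2-/-, of Efnb2, Sema3e and Efna3 between Ezh2-/- and Eed-/-, and of Nrp2 between Jarid2-/- and Eed-/- were each lost without at least 1 of the arrays compared, with the highest adjusted p at 0.21 for Epha4. Sema3f, which signals through NRP2, read 276 and 253 in Ezh2-/- against 197 and 190, and the call was lost without either Ezh2-/- array or Jarid2-/- array 2, with adjusted p of 0.15, 0.072 and 0.1. The cause of these differences was not tested.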

How the results depend on the processing

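The number of member probe sets past the threshold depended most on the filter on dim probe sets and on single arrays. Counts over all probe sets under these settings are not given here, nor is the number of members left by the filter. A loss of calls particular to the members is therefore not shown. With only probe sets whose mean was above the negative controls, fewer were tested, and 17 were called in Ezh2-/- in place of 30, 7 in Eed-/- in place of 18 and 16 in Jarid2-/- in place of 29. A fit of the 2 genotypes alone, on fewer arrays, gave 11 in Eed-/-. Leaving out 1 array at a time gave 15 to 28 in Ezh2-/-, 3 to 18 in Eed-/- and 19 to 26 in Jarid2-/-. Between mutants it gave 11 to 21 for Ezh2-/- against Eed-/-, 10 to 14 for Jarid2-/- against Eed-/- and 3 to 13 for Jarid2-/- against Ezh2-/-. With the replicate block, 31, 21 and 31 were called against wild type and 20, 14 and 14 between mutants. It ended no call of a named gene, but brought Epha2, Nrp2 and Plxnd1 in Eed-/- (adjusted p of 0.035, 0.027 and 0.044) and Plxnd1 in Ezh2-/- (0.039) past the threshold. Of 70 calls of named members between any 2 genotypes, 36 held under every alternative run and 34 were lost under at least 1, each of the 34 without at least 1 array. None changed sign. The 12 calls of pathway genes, whose alternatives were added after seeing the data, held under all that were run. Where an array was left out, the lone array of its group was assumed to vary like the other groups. The calls of Slit3, Efnb1, Unc5b and Nrp2 in Ezh2-/-, of Efnb1, Unc5b, Nrp2 and Epha4 in Jarid2-/- and of Ntn1 in Eed-/- and Jarid2-/- were among those that held. Signals near the negative controls limit what can be said of the dim members.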
